A study of Mus musculus with 18 samples.

Results

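The comparison set H3K4me3 at meiotic recombination hotspots of inbred mice with 2 copies of a humanized Prdm9 allele against hybrid mice with 1 copy of it. Its units were 1 kb bins centred on hotspots. A bin of the Hum/Hum table and a bin of the rescue table formed a paired site when their centres lay within 1000 bp, when each was the nearest available centre of the other, and when neither overlapped an H3K4me3 peak that the authors marked as likely PRDM9-independent. There were 7402 paired sites on the 19 autosomes, from 14268 Hum/Hum bins and 13731 rescue bins without that mark, or 27999 bins in all. The centres of a pair lay a median of 77 bp apart, and 57.4% lay within 100 bp.

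The Hum/Hum animals were of the B6 strain with the Humanized/Humanized genotype at Prdm9. The rescue animals were (PWDxB6)F1 males, sons of a PWD mother and a B6 father, with the PWD/Humanized genotype, so that each cell held 1 B6 and 1 PWD chromosome set and a second, different PRDM9 protein. Both groups gave whole adult testis, a mixture of germ and somatic cells, and no age is stated for these H3K4me3 samples. Hum/Hum was 1 library of 70 to 80 M read pairs that the authors split into pseudoreplicates, and rescue was 2 biological replicates of 40 to 50 M read pairs each, littermates of the infertile PWD/B6 hybrids. The groups therefore differed together in the number of Hum copies, in the presence of the PWD allele and in the whole genetic background, and these cannot be told apart. Less H3K4me3 per cell and fewer cells that carry it cannot be told apart either.

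PRDM9 is a zinc-finger protein of early meiotic prophase whose methyltransferase domain adds H3K4me3 to the nucleosomes beside the DNA motif that its fingers read, and SPO11 then cuts the DNA near these sites. DMC1 loads on the single-stranded ends of the breaks and guides them to the homologous chromosome. The humanized allele encodes mouse PRDM9 with a human zinc-finger array, so its sites are set by the human motif, and when it replaces the B6 allele in this cross the sons of PWD mothers become fertile. A hybrid site is called symmetric when both homologues are marked and asymmetric when 1 homologue holds nearly all of the mark.

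The sites held the letters of the human PRDM9 motif more often than sites of the B6 allele did. The degenerate 13-base form CCNCCNTNNCCNC was searched on both strands in the central 200 bp of each bin. It was found in 782 paired sites or 10.6%, in 9.52% of all Hum/Hum bins without the PRDM9-independent mark, in 6.56% of the rescue bins and in 1.17% of the B6/B6 bins. In the whole 1 kb bin the shares were 27.8, 26.4, 19.6 and 7.70% in the same order. The 7-base core CCTCCCT was found in the central 200 bp of 11.4% of paired sites and 4.89% of B6/B6 bins. Both forms stood together at 260 paired sites, and at 192 of these a 7-base match lay inside a 13-base match. Of 4 equal groups by Hum/Hum enrichment, the 13-base form was found in 12.5% of paired sites in the highest and 8% in the lowest. Median GC content was 44.2% in paired sites and 42.7% in B6/B6 bins, so base composition differed as well, and its part in the motif shares was not tested.

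The 6 sequences that follow are the central 200 bases of the sites with the highest Hum/Hum enrichment that held the 13-base form and at least 20 input fragments in both tables, 2 from each class of B6 share described further on. They are from the RefSeq GRCm38.p6 (mm10) reference of the B6 strain, 5′ to 3′ on the strand named, with the 13-base match in capitals (at Ccdc186, 2 overlapping matches). They show that sites used mainly on the B6 homologue, on both homologues or mainly on the PWD homologue could carry the same letters in the B6 reference. PWD sequence was not used here.
B6-sided, 33366 bp from Rpl11, chr4:136086695-136086894, minus strand: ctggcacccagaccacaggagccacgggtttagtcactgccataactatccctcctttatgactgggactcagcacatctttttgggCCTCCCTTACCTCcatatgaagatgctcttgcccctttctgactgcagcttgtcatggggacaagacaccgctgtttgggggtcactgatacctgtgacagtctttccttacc
B6-sided, intron of Ccdc186, chr19:56798163-56798362, minus strand: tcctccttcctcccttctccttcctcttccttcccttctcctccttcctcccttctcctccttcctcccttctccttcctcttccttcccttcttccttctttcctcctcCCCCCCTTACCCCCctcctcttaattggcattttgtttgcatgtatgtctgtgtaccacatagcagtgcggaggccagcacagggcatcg
balanced, 177622 bp from Slc30a10, chr1:185646285-185646484, minus strand: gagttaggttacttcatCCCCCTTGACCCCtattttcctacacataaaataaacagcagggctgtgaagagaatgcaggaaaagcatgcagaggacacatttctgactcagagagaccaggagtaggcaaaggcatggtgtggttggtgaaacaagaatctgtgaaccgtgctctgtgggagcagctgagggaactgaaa
balanced, intron of Zfp423, chr8:87740199-87740398, plus strand: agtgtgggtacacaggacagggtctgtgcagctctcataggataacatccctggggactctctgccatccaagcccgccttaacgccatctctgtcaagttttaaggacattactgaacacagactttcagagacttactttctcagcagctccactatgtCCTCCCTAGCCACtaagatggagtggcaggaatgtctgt
PWD-sided, intron of Wnt4, chr4:137280617-137280816, minus strand: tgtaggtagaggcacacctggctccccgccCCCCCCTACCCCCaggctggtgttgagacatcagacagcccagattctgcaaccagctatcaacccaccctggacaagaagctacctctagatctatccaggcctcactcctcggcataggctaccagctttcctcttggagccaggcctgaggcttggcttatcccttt
PWD-sided, intron of Tctex1d1, chr4:102982235-102982434, plus strand: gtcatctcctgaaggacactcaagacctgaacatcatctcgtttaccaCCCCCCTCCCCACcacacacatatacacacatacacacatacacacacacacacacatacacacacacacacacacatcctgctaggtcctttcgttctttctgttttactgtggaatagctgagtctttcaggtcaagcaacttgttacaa

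The match was not at a fixed place in these windows and its variable letters differed. The window in Ccdc186 held 2 matches that overlap inside a CT-rich run, and its capitals cover both. By class, the 13-base form was found in 9.96% of B6-sided, 11.7% of balanced and 9.86% of PWD-sided sites, with 14 sites in the last class. A match is a description of letters and does not show that PRDM9 binds there.

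Depth set the precision of single sites. The ChIP fragments in a paired site had a median of 124 in Hum/Hum, 34 in rescue replicate 1 and 40 in replicate 2, and the input fragments had a median of 38 and 27. Enrichment is the authors' estimate of ChIP signal over local background from these counts, with 0 meaning no excess. It rose by a fixed amount with each unit of the ChIP to input ratio in either table (largest residual 0.00356 in Hum/Hum and 0.0105 in rescue). An enrichment for each rescue replicate was derived from this line under assumptions. The fitted rise of the summed ratio per unit of enrichment, 2.07, was taken as 1 for replicate 1 and the rest for replicate 2. The intercept was divided by their counts in bins with an enrichment of 0. Both replicates used the same input counts, so their enrichments share the error of the input. The scale of each table is its own, so a ratio of the enrichments is meaningful between classes of sites and less so as a level. The deposited p-value was below 0.05 at 96.8% of paired sites in Hum/Hum and at 91.0% in rescue. The enrichment was 0 at 77 paired sites in Hum/Hum and at 102 in rescue, and missing at 3 and 1.

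Strong Hum/Hum sites were nearly all found again beside the PWD allele, and weak ones mostly were not. Of the Hum/Hum bins, 51.9% (Wilson 95% interval 51.1 to 52.7) had a rescue pair. Ordered by Hum/Hum enrichment into 4 groups of equal size, the paired share was 15.7%, 34.4%, 65.5% and 91.9% (90.9% to 92.8%) from the lowest group to the highest. Median Hum/Hum enrichment was 1.45 in paired bins and 0.425 in the 6865 unpaired ones. The rescue table held bins only at hotspots called in the rescue DMC1 map, so a bin without a pair may still carry the mark. These intervals cover counting error only.

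From the rescue side, 86.1% of the bins that the authors assigned to the Hum allele had a Hum/Hum pair. The authors' assignment of the paired sites was Hum for 7158 (96.7%), PWD and Hum for 147, undetermined for 93 and PWD for 4. The Hum-assigned rescue bins with no pair stood mostly on the PWD homologue. Their B6 share of H3K4me3 was at most 0.1 in 419 of 707 with 10 or more informative reads (59.3%, 55.6% to 62.8%), against 136 of 4980 (2.73%) of the paired ones. PWD chromosomes are absent from the Hum/Hum mice.

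**Figure D1:**
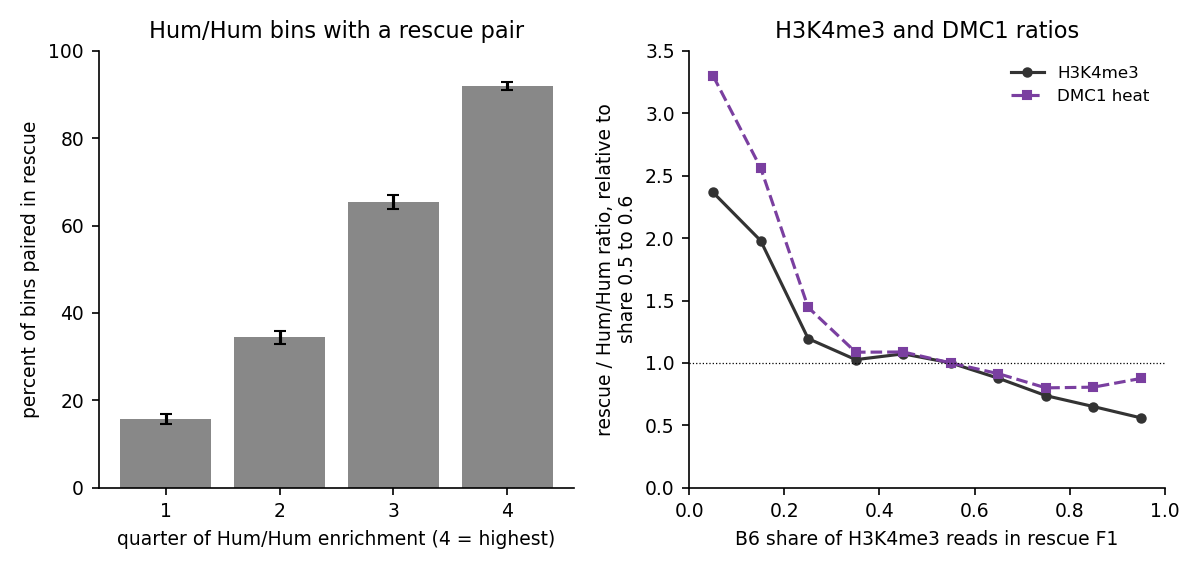
Left, percent of Hum/Hum bins that had a rescue pair, in 4 equal groups by Hum/Hum enrichment, with Wilson 95% intervals, from 15.7% to 91.9%. Right, median ratio of rescue to Hum/Hum H3K4me3 enrichment and of DMC1 heat at paired sites by the B6 share of H3K4me3 in rescue, each divided by its value at a share of 0.5 to 0.6; both are highest at shares under 0.1, and at a share of 0.9 or more the H3K4me3 line lies below the DMC1 line.

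The order of the sites was largely kept between the genotypes. Across paired sites, the enrichment had a Spearman correlation of 0.719 between Hum/Hum and rescue (0.707 with replicate 1 and 0.708 with replicate 2). The rescue replicates correlated at 0.929 with each other and the Hum/Hum pseudoreplicates at 0.947. Within each table both values were divided by the same input counts, which the genotypes do not share. The correlations within and between genotypes are therefore not on equal terms. The points of each correlation are sites of the same libraries, and sites are not independent replicates. Median enrichment was 1.45 in Hum/Hum (quartiles 0.829 and 2.31) and 1.02 in rescue (0.508 and 1.98), with 0.985 in replicate 1 and 1.08 in replicate 2. The rescue to Hum/Hum ratio over the 7321 sites with a Hum/Hum enrichment above 0 had a median of 0.770 (0.736 and 0.804 in the replicates).

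That level depends on what it is set against. In 774 paired bins with the PRDM9-independent mark in both tables, the median ratio was 1.33 (1.30 and 1.37 in the replicates). Divided by that value, the ratio of the paired sites was 0.580 (0.565 and 0.586). With 1 Hum/Hum library neither level has a test.

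Sites were then grouped by the B6 share, the fraction of informative rescue H3K4me3 reads from the B6 homologue. With 10 or more informative reads, 5116 sites had a share. It was at least 0.9 at 1014 sites (19.8%), called B6-sided, from 0.4 to 0.6 at 1984 sites (38.8%), called balanced, and at most 0.1 at 142 sites (2.78%), called PWD-sided. The other 1976 lay between these limits. Share and enrichment both came from the rescue H3K4me3 libraries, so the classes and the ratios were not independent on the rescue side. The enrichment of B6-sided sites was 1.79 in Hum/Hum at the median, then 0.878 and 0.966 in the rescue replicates. Balanced sites had medians of 1.96, 1.77 and 1.96 in the same order. B6-sided and balanced sites were thus near each other in Hum/Hum and apart in both rescue replicates.

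The rescue to Hum/Hum ratio had a median of 0.538 at B6-sided sites (quartiles 0.388 and 0.733, replicates 0.509 and 0.561). At balanced sites it was 0.992 (quartiles 0.716 and 1.35, replicates 0.948 and 1.03). B6-sided sites thus stood at 0.542 of the balanced value, 0.536 in replicate 1 and 0.543 in replicate 2. The ratio lay below the balanced median at 90.9% of B6-sided sites. No test was made of these ratios, since 1 Hum/Hum library against 2 rescue libraries cannot reach a one-sided exact permutation p under 0.333. Just inside the limit, at shares of 0.90 to 0.92, the ratio was 0.628 (75 sites), and just outside, at 0.88 to 0.90, it was 0.572 (52 sites).

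**Figure D2:**
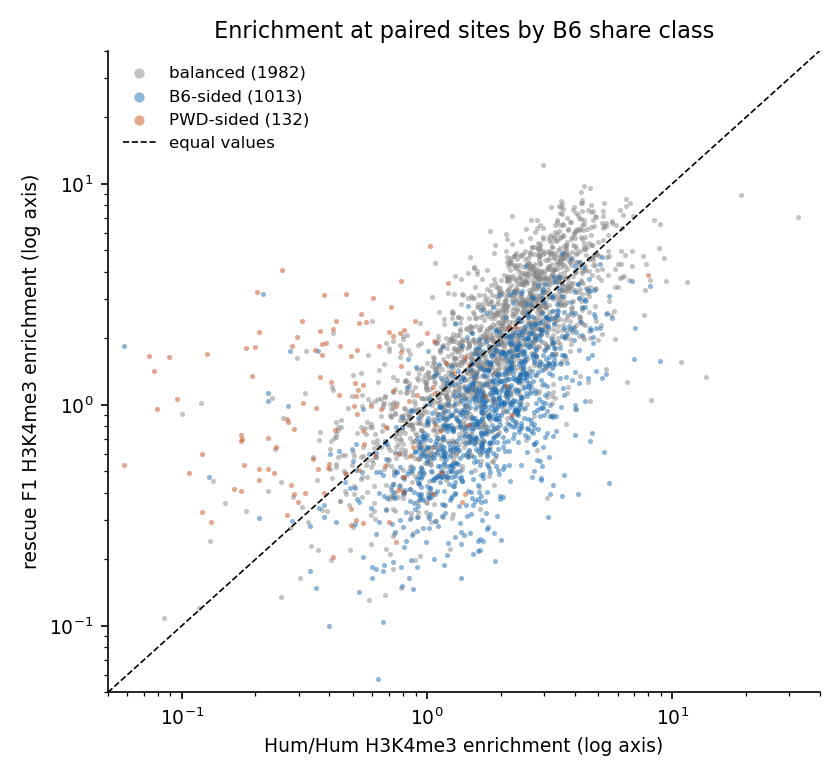
Rescue against Hum/Hum H3K4me3 enrichment on log axes, 1 point per paired site, for B6-sided (1013 shown), balanced (1982) and PWD-sided (132) sites; 13 sites below 0.05 in either table are not drawn. Balanced sites lie about the dashed line of equal values, B6-sided sites mostly below it, and PWD-sided sites mostly at low Hum/Hum values and above it.

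The ratio changed in steps over the whole range of shares. Its median was 1.03 at shares of 0.4 to 0.5, 0.960 at 0.5 to 0.6, 0.842 at 0.6 to 0.7, 0.709 at 0.7 to 0.8 and 0.625 at 0.8 to 0.9. Below 0.4 it was 0.985, then 1.15, 1.90 and 2.27 in the steps down to 0. In both rescue replicates the ratio was lower in each higher step of the share, except that it was 0.988 and 1.07 at 0.4 to 0.5 against 0.924 and 1.07 at 0.3 to 0.4.

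The bins with the PRDM9-independent mark showed the same gradient. Relative to their own bins at shares of 0.4 to 0.6 (329 bins), the ratio was 0.523 at shares of 0.9 or more (57 bins, replicates 0.522 and 0.545), against 0.542 at paired sites. At shares of 0.7 to 0.9 it was 0.715 (97 bins), against 0.673, and below 0.1 it was 2.25 with 6 bins. The relation of the ratio to the B6 share was therefore not particular to sites without the mark. Of the 57 marked bins with a share of 0.9 or more, 1 lay within 1 kb of the start of a protein-coding gene, against 25 of the 329 balanced ones. How much of the H3K4me3 in the marked bins depends on PRDM9, and whether the count of reads from PWD chromosomes takes part in the gradient, was not tested. Input fragments were counted over both homologues together. The median rescue to Hum/Hum ratio of input fragments was 0.690 at B6-sided, 0.681 at balanced and 0.736 at PWD-sided sites.

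**Figure D3:**
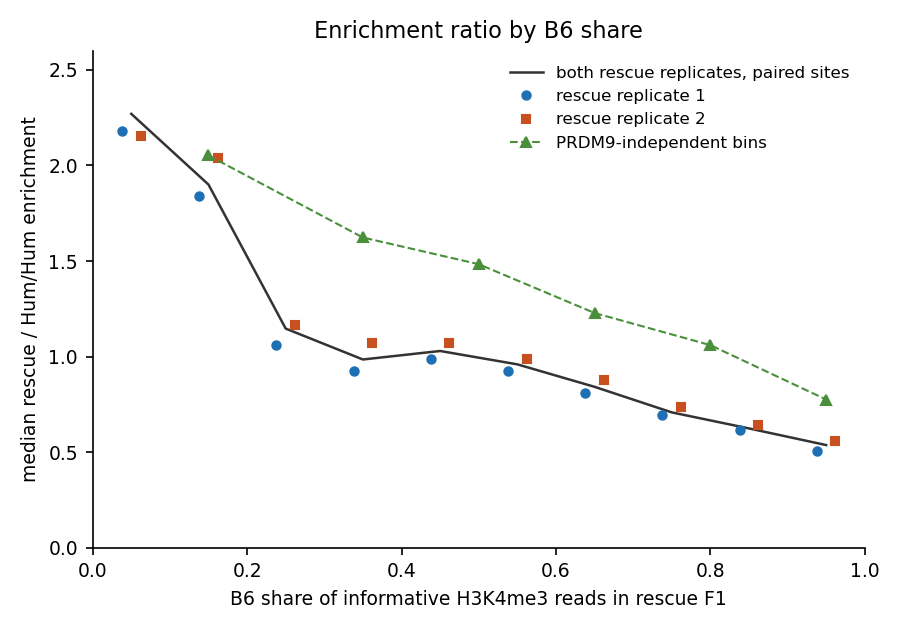
Median ratio of rescue to Hum/Hum enrichment against the B6 share of H3K4me3 in rescue, for paired sites (line, both replicates together; points, each replicate) and for bins with the PRDM9-independent mark (triangles). The line falls from 2.27 at the lowest shares to 0.538 at the highest, and the triangles fall with it at a higher level.

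The enrichment was divided between the homologues by multiplying the ratio by the B6 share, or by 1 minus that share. The B6-chromosome part had a median of 0.523 of the Hum/Hum enrichment at B6-sided sites (replicates 0.494 and 0.549) and of 0.5004 at balanced sites (0.481 and 0.514). Their quotient was 1.05 (1.03 and 1.07), with the B6-sided value above the balanced one in each replicate. From a share of 0.4 upward the B6 part lay between 0.467 and 0.546. Below that it was 0.348, 0.298, 0.279 and 0.0636. The PWD-chromosome part ran the other way, from 2.24 at shares under 0.1 to 0.570 at 0.4 to 0.5, 0.433 at 0.5 to 0.6 and 0.000758 at 0.9 and above. Both parts use the share itself, so their slopes are in part arithmetic. From a share of 0.4 upward the level of the B6 part also depends on the scale of each table, as the ratio does.

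**Figure D4:**
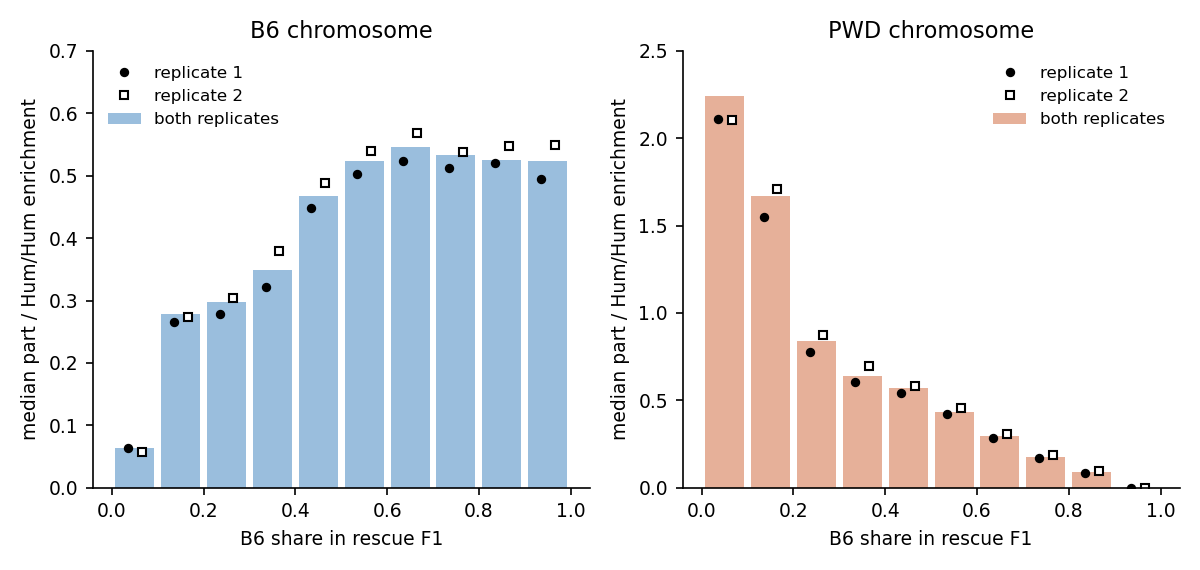
Median B6-chromosome part (left) and PWD-chromosome part (right) of the rescue enrichment, as a ratio to the Hum/Hum enrichment of the same site, in steps of 0.1 of the B6 share; bars are both replicates together and points are each replicate. The B6 part lies between 0.467 and 0.546 from a share of 0.4 upward, and the PWD part falls from 2.24 to near 0.

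The same classes were made from a library the ratio did not use, the rescue DMC1 sample, whose B6 share the authors give for each hotspot. B6-sided sites by DMC1 (1382) had a median H3K4me3 ratio of 0.527, balanced ones (1953) 0.896 and PWD-sided ones (264) 2.17, so the B6-sided value was 0.588 of the balanced one (0.594 and 0.588 in the replicates). The shares from H3K4me3 and from DMC1 had a Spearman correlation of 0.802 over 4941 sites. Of the B6-sided sites by H3K4me3 with a DMC1 share, 845 (84.9%) were also B6-sided by DMC1 and 0 were PWD-sided. The DMC1 shares come without a read number, so their error is not known.

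PWD-sided sites were weak in Hum/Hum. Their median enrichment was 0.456 in Hum/Hum, 1.06 in rescue replicate 1 and 0.939 in replicate 2, and the ratio was 2.27 (quartiles 1.10 and 4.60, replicates 2.18 and 2.15) over the 138 sites with a value. Relative to balanced sites this was 2.29 (2.30 and 2.08). Of all 142 PWD-sided sites, 114 lay in the lowest of 4 equal groups of paired sites by Hum/Hum enrichment. Among sites with a Hum/Hum enrichment of 1 or more, the PWD-sided ratio relative to balanced sites was 1.01, so the high value rested on sites that are weak on 2 B6 chromosomes. The B6-sided value was 0.578, 0.565, 0.548 and 0.513 in these 4 groups, from the lowest Hum/Hum enrichment to the highest.

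DMC1 heat, the authors' signal for breaks at a hotspot, was also compared, and its B6-sided value lay nearer to the balanced one than that of H3K4me3. The median ratio of rescue to Hum/Hum heat was 0.578 at B6-sided, 0.686 at balanced and 2.21 at PWD-sided sites. Relative to balanced sites, B6-sided sites stood at 0.843 for DMC1 and at 0.542 for H3K4me3, and PWD-sided sites at 3.22 and 2.29. Each DMC1 map was 1 library from males of about 10 weeks, the maps may differ in scale, and the difference between the readouts was not tested. Over all paired sites the heat of the maps had a Spearman correlation of 0.755.

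For site by site calls, the ChIP counts of the 1 Hum/Hum library and the 2 rescue replicates were compared with edgeR's quasi-likelihood test with Benjamini-Hochberg adjustment over all 7402 sites and TMM scaling over these sites. The spread was estimated from the rescue replicates alone, with 1 residual degree of freedom, and the lone Hum/Hum library was assumed to vary like them. At an adjusted p under 0.05, 2286 sites were called, which is 30.9% of those tested. Rescue was higher at 1267 sites (17.1%) and lower at 1019 (13.8%), and 2285 of the 2286 went the same way in both rescue replicates. DESeq2 called only 131, of which 127 were higher and 4 lower, among the 5680 sites it gave an adjusted p, so that nearly all lower calls were lost with that tool. Past a 2-fold difference there were 533 sites.

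Calls at B6-sided sites were nearly all lower and calls at PWD-sided sites were all higher under this scaling. Of the 1014 B6-sided sites, 490 were lower (48.3%, against 13.8% of all sites) and 12 were higher (1.18%, against 17.1%). Of the 1984 balanced sites, 69 were lower (3.48%) and 562 higher (28.3%). Of the 142 PWD-sided sites, 0 were lower and 95 were higher (66.9%). With classes from the DMC1 share, 612 of 1382 B6-sided sites were lower and 20 higher, and 182 of 264 PWD-sided sites were higher and 1 lower.

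The split between higher and lower depended on the scaling. With library sizes taken from the PRDM9-independent bins, the median log2 fold change over all sites moved from -0.02 to -0.47, and 355 sites were higher (4.8%) and 3286 lower (44.4%). With summed counts and no TMM, 469 were higher and 2282 lower, around a median of -0.34. Under the PRDM9-independent scaling, 907 B6-sided sites were lower (89.4%) and 9 higher, 623 balanced sites were lower (31.4%) and 73 higher, and 81 PWD-sided sites were higher (57.0%) and 7 lower. Under each scaling taken alone, most balanced sites were not called. The direction of the larger count of calls among them turned with the scaling. In the B6-sided and PWD-sided classes the larger count had the same direction under both. The median log2 fold change was -0.52 at B6-sided, 0.20 at balanced and 1.18 at PWD-sided sites under TMM, and -0.96, -0.24 and 0.74 under the other scaling.

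**Figure D5:**
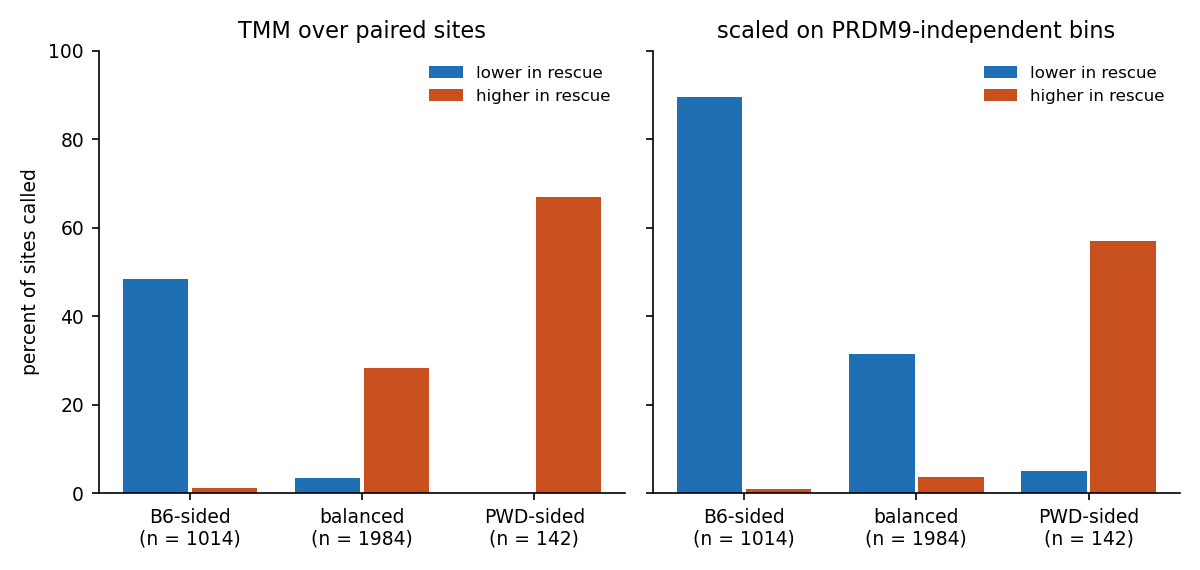
Percent of B6-sided, balanced and PWD-sided sites that edgeR called lower (blue) or higher (orange) in rescue than in Hum/Hum, at an adjusted p under 0.05, with TMM over paired sites (left) and with library sizes from PRDM9-independent bins (right). B6-sided sites are lower at 48.3% and 89.4%, and PWD-sided sites higher at 66.9% and 57.0%. Balanced sites are higher at 28.3% on the left and lower at 31.4% on the right. In each panel taken alone, most balanced sites are not called.

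Single sites are named by the gene they lie in or the nearest gene, which gives their place only, since no gene expression was measured. Bin limits are mm10 as deposited. The largest Hum/Hum enrichments came from bins with very few input fragments and are imprecise. At B6-sided sites these were in introns of Iqcm (chr8:75827412-75828412, enrichment 8.94, 7 input fragments), of Anks1b, a synaptic scaffold gene (8.09, 15 input fragments), and of Nipbl, which encodes the cohesin loader (7.08, 7 input fragments). None of the 3 was called under TMM. Under the PRDM9-independent scaling Iqcm and Anks1b were lower (edgeR adjusted p 0.00124 and 0.0420). At balanced sites they were in an intron of Gm31415 (32.7, 2 input fragments), 2522 bp from Clec5a, a myeloid lectin receptor gene (19.1, 6 input fragments), and 1631931 bp from Acvr2a, an activin receptor gene (13.7, 3 input fragments). The first and second of these were called higher under TMM and not under the PRDM9-independent scaling (edgeR adjusted p 0.279 and 0.0978). Their rescue enrichments were nonetheless below Hum/Hum in both replicates, at 7.80 and 6.42 for Gm31415 and 8.76 and 9.01 near Clec5a. At PWD-sided sites the largest Hum/Hum enrichment was in an intron of Cntnap2, a neuronal adhesion gene (8.01, 7 input fragments). The next were 287294 bp from Jrkl (2.28, 9 input fragments) and 172476 bp from Mast4 (2.22, 25 input fragments). Of these 3 only the site near Jrkl was called, as higher under TMM, and it was not under the other scaling (edgeR adjusted p 0.0520).

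Sites with at least 20 input fragments in both tables, a limit chosen after these values were seen, gave firmer examples. The B6-sided site 1018 bp from C87977 (chr4:144213836-144214836) had 335 ChIP fragments in Hum/Hum and 63 and 93 in rescue. Its enrichment was 7.01 in Hum/Hum and 1.30 and 1.90 in rescue, both rescue replicates below, with a log2 fold change of -0.47 and an edgeR adjusted p of 0.0113. The B6-sided site in an intron of Sh3rf3 (chr10:58898505-58899505) had enrichments of 5.39, 1.28 and 1.47 and a log2 fold change of -0.53 (edgeR adjusted p 0.00462), with a B6 share of 1. The B6-sided site 13510 bp from Slc5a4b (chr10:76123971-76124971) had enrichments of 6.88, 3.65 and 3.60, again lower in both replicates, and its counts were called lower only under the PRDM9-independent scaling (log2 fold change -0.62, edgeR adjusted p 3.13e-05, against -0.17 and 0.354 under TMM).

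Of the 3 balanced sites with this input, 1 was below Hum/Hum in both replicates, 1 above it in both and 1 between them. The site in Phf12, a PHD-finger gene, overlapped a coding exon (chr11:78012756-78013756), with enrichments of 8.47 in Hum/Hum and 6.98 and 6.79 in rescue and a share of 0.442. The site in an intron of Crybg1 (chr10:44016547-44017547) had 6.94, 7.96 and 6.44 with a share of 0.514, so the Hum/Hum value lay between the replicates. The site in an intron of Ppm1b, a protein phosphatase gene (chr17:84984455-84985455), had 6.50, 7.68 and 8.12 with a share of 0.429. By counts, Ppm1b was called higher (log2 fold change 0.77, edgeR adjusted p 1.02e-10), as was Phf12 (0.67, 6.33e-06), and Crybg1 was not (0.23, 0.0992). At Phf12 the enrichments were below Hum/Hum and the counts above it, so the scales differed there, and under the PRDM9-independent scaling its log2 fold change was 0.22 (edgeR adjusted p 0.142).

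The 3 PWD-sided sites with this input and the highest Hum/Hum enrichment were not called. Rescue enrichment was below Hum/Hum in both replicates at 2 of them. The site near Mast4 had enrichments of 2.22 in Hum/Hum and 0.832 and 0.968 in rescue, with a share of 0.0710 (edgeR adjusted p 0.784). Its DMC1 share was 0.386, so by DMC1 it was not PWD-sided. The site in an intron of Wnt4, a secreted signalling gene, had enrichments of 1.48, 1.58 and 1.44 with a share of 0.0403 and a DMC1 share of 0. Its Hum/Hum value lay between the replicates (edgeR adjusted p 0.148). The site in an intron of Lama3, a laminin gene, had 2.10, 1.11 and 1.32 with a share of 0.0657 (edgeR adjusted p 0.750). That share came from 10.4 informative reads, near the limit of 10, and no DMC1 share was given. By counts the log2 fold changes at Mast4, Wnt4 and Lama3 were 0.095, 0.34 and 0.10 under TMM. Under the PRDM9-independent scaling they were -0.35, -0.11 and -0.35. Near Mast4 and at Lama3 the enrichments and the TMM counts thus differed in direction.

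The highest rescue enrichments stood 20246 bp from Fam91a1 (2.97 in Hum/Hum, then 11.5 and 12.9), in an intron of Osbpl6 (4.37, then 9.33 and 10.2) and in an intron of Parp1, which encodes a sensor of DNA breaks (2.83, then 9.52 and 9.72). All 3 were above Hum/Hum in both replicates and were called higher, but their rescue input was 13, 17 and 25 fragments. Their B6 shares were 0.472, 0.516 and 0.675. By counts their log2 fold changes were 0.63, 0.81 and 0.74, smaller than the enrichments imply. Under the PRDM9-independent scaling the Fam91a1 site was no longer called (edgeR adjusted p 0.229).

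The largest fold changes among called sites in the highest of those 4 groups of enrichment in either table were seen 71281 bp from Klf10, 457 bp from Il5 and in an intron of Rapgef1. Near Klf10, a TGF-beta responsive gene (chr15:38371487-38372487), Hum/Hum had 44 ChIP fragments and the rescue replicates 118 and 145. The log2 fold change was 3.21 (edgeR adjusted p 1.1e-49) and the B6 share 0.0326, so this strong rescue site stood on the PWD homologue. Near Il5, the eosinophil cytokine gene (chr11:53719837-53720837), there were 42, 113 and 117 fragments, a log2 fold change of 3.08 and a share of 0.712, and the authors assigned the site to PWD and Hum. At Rapgef1, a guanine nucleotide exchange factor gene (chr2:29624318-29625318), there were 49, 106 and 133 fragments and a log2 fold change of 2.91. Its share was 0.953, so it was a B6-sided site that was higher in rescue, unlike most of its class, and its DMC1 share was 0.990.

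The deposited B6 share was 1 at all 3 sites with the lowest fold changes, but those near Wdr43 and in Kcnh8 had 8.35 and 3.35 informative reads, under the limit of 10, and belong to no class. The site 6225 bp from Wdr43, a ribosome biogenesis gene (chr17:71664756-71665756), had 179 fragments in Hum/Hum and 17 and 18 in rescue, a log2 fold change of -1.71 (edgeR adjusted p 1.22e-09). In an intron of Kcnh8, a potassium channel gene (chr17:52781783-52782783), there were 37, 6 and 2 fragments and a log2 fold change of -1.56. In an intron of Zfhx4, a zinc-finger homeobox gene (chr3:5366264-5367264), there were 115, 14 and 16 and a log2 fold change of -1.30. Both rescue replicates lay below Hum/Hum in scaled counts at each of these 3.

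Genes of meiotic recombination held few paired sites within them or 2000 bp around them. Of 15 break formation gene names, 14 were in the annotation. Of these, 2 held 3 sites, of which 1 was higher and 1 lower, beside 17.1% and 13.8% of all paired sites. Of 16 strand exchange genes, 2 held 1 site each, with 1 called higher. Of 13 axis and synaptonemal complex gene names, 12 were in the annotation and 3 of them held 1 site each, with 2 called higher. The median ratio over each list was 0.684, 0.902 and 1.18, beside 0.770 over all paired sites, from 2 or 3 sites a list, too few to read against these shares.

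Within these lists, Ankrd31, which encodes a partner of the break-forming REC114, held an intronic site with enrichments of 1.74, 2.34 and 3.13, called higher (log2 fold change 0.95). Cdyl, a chromodomain gene, held a site with a share of 0.944 and enrichments of 1.38, 0.0849 and 0.378, called lower (-1.27), and another with 1.40, 0.773 and 1.13 that was not called. Dmc1 itself held an intronic site with enrichments of 2.81, 3.20 and 2.68 and a log2 fold change of 0.71, called higher, although its Hum/Hum enrichment lay between those of the replicates. Under the PRDM9-independent scaling this site was not called (edgeR adjusted p 0.186), while the other calls named here from the lists were made under both scalings. Syce1, a central element gene of the synaptonemal complex, held a site with a share of 0.0427 and enrichments of 0.530, 2.29 and 2.40, called higher (1.05). Sycp3, of the lateral element, had a site within 2000 bp with enrichments of 2.52, 2.68 and 3.28, called higher (1.40) from only 28, 21 and 27 fragments.

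The pair of tables without the humanized allele gave a like value for B6-sided sites. There were 6470 paired bins of B6/B6 and infertile PWD/B6 hybrids, treated the same way. Relative to balanced sites, the ratio was 0.566 at B6-sided sites (replicates 0.551 and 0.562) and 5.79 at PWD-sided sites (5.52 and 5.82). It had a value at 297 of 301 B6-sided and at 902 of 1049 PWD-sided sites. The B6-chromosome part of B6-sided sites relative to balanced ones was 1.15 there and 1.05 here. These tables use other libraries, the B6/B6 table was again 1 library, and the difference between the pairs of genotypes was not tested. No input sample is listed for B6/B6, so the source of its input counts is not known here.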

How the data were processed

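Testis chromatin was measured by H3K4me3 ChIP-seq. The submitters' processing notes name BWA, SAMtools, bedtools and the mm10 build, without versions. Per the file headers, deposited counts are ChIP or input fragments that overlap 1 kb bins centred on DMC1 hotspots, enrichment is a ratio to local background with a minimum of 0, and the p-value tests that enrichment against 0 by likelihood ratio. The B6 share is a fraction estimated by the authors, with informative reads after background subtraction. DMC1 heat is the authors' signal, whose definition is not given in the sources used here. Summed over its bins, Hum/Hum held 1090071 and 1091948 ChIP and 1032439 input fragments, and rescue 979748, 1097033 and 750244.

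Here autosomal bins were paired 1 to 1 and pseudoreplicates summed. Ratios are linear, without a pseudocount. Tests ran in R 4.3.3 with edgeR 4.0.16 and DESeq2 1.42.0, other steps in Python 3.11.15 with SciPy 1.17.1 and pandas 2.3.3. The 2-fold count used CPM plus 0.5. Genes were those of GENCODE M21. The edgeR step was tested on simulated data. Members, classes and lists were chosen with earlier results of these data known. Named sites are the 3 with the highest Hum/Hum enrichment in each share class, the 3 with the highest rescue enrichment, and the 3 highest and 3 lowest fold changes among called sites in the highest of 4 equal groups of enrichment and with the same direction in both replicates, all without bins of input above 10 times the median, plus sites of 3 gene lists. Some results under this rule are not reported here. The labels call the rescue replicates biological and do not say from how many animals, so p-values measure the spread between these samples.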

Additional observations from a re-analysis of the deposited data

How the results depend on the processing

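No paired analysis was possible because Hum/Hum has 1 library and the labels give no replicate numbers. Of 62 alternatives, 37 stayed within the replicate spread or within 1.5 times the count, and 0 turned the direction of the ratios. The 4 groups by Hum/Hum enrichment were not among them. In the upper groups the PWD-sided value relative to balanced sites was 0.664 (7 sites) and 0.470 (1 site). For the calls, the split of higher against lower sites turned from 1267 and 1019 to 355 and 3286 with scaling on PRDM9-independent bins and to 469 and 2282 with no TMM. DESeq2 called 131 sites and scaling on PRDM9-independent bins 3641, against 2286. The B6-sided ratio relative to balanced sites was 0.537 with pairs within 500 bp, 0.591 with 30 or more informative reads, 0.588 with DMC1 shares, 0.577 with class limits of 0.8, 0.2 and 0.3 to 0.7, 0.548 from summed enrichments, 0.535 at Hum/Hum enrichment of 1 or more, and 0.534 with at least 20 input fragments, an alternative chosen after seeing the data. The PWD-sided value was 3.67, 1.94, 1.01 and 2.51 with 30 informative reads, summed enrichments, Hum/Hum enrichment of 1 or more and 20 input fragments. The B6 part was 1.13 with 30 informative reads and 1.16 with DMC1 shares. The rank correlation was 0.722 and 0.730 with pairs within 500 and 200 bp, 0.717 without high-input bins and 0.765 with 20 input fragments. The median ratio was 0.580 relative to PRDM9-independent bins, and 42.0% of Hum/Hum bins had a pair within 200 bp. Leaving out a rescue replicate gave 0.536 to 0.543 for the B6-sided value, 2.08 to 2.30 for the PWD-sided one, 1.03 to 1.07 for the B6 part, 0.707 to 0.708 for the correlation, 0.736 to 0.804 for the median ratio and 622 to 738 sites past 2-fold, a count chosen after seeing the data, as values with no test. The causes of these shifts were not tested. Low input limits single sites, and the lone Hum/Hum library limits every call.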

Other observations

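B6-sided sites stood below balanced sites on each of the 19 autosomes. The B6-sided ratio relative to balanced sites ran from 0.449 on chromosome 6 (55 B6-sided sites) to 0.728 on chromosome 16 (34 B6-sided sites), with no test between chromosomes. On chromosome 16 the ratio was 0.667 at B6-sided and 0.915 at balanced sites, with 0.616 and 0.734 in the replicates for the former.

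Most paired sites lay in introns (57.4%) or between genes (37.8%), and 2.19% overlapped a coding exon and 2.24% a UTR. The B6-sided ratio was 0.536 in introns and 0.543 between genes, a difference smaller than that between the replicates. At PWD-sided sites it was 2.70 in introns (81 sites) and 1.43 between genes (54 sites), with replicate values of 2.86 and 2.69 against 1.52 and 1.36.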
